A study of Homo sapiens with 8 samples.

Results

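ARNTL, CLOCK and NPAS2, the activating transcription factors of the circadian clock, were 3 of 779 genes targeted in a pooled CRISPR–Cas9 knockout screen of Taxol-resistant breast cancer cells. They were taken by gene name from the sgRNA tables, where each had 10 sgRNAs, so that the set held 30 of 7855 sgRNAs. The sgRNAs are numbered 1 to 10 within a gene by the order of their identifiers, which run from epikol_v2_371 for ARNTL, epikol_v2_1421 for CLOCK and epikol_v2_4121 for NPAS2. ARNTL carries the symbol BMAL1 in RefSeq, and the older symbol of the tables is kept here.

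The cells were T1-160, a Taxol-resistant derivative of the human triple-negative breast cancer line SUM159PT. All of them expressed Cas9, were transduced with EPIKOL, a lentiviral sgRNA library against chromatin regulators, and went through puromycin selection in the presence of verapamil, an efflux pump inhibitor. The 2 AP libraries (after puromycin, replicates 1 and 3) came from cells collected at the end of that selection. The 3 DMSO libraries came from cells kept in vehicle, and the 3 Taxol libraries from cells kept in 160 nM Taxol, both for 16 population doublings. The readout was the abundance of each sgRNA in genomic DNA, so a knockout that slowed growth lowers the count of its sgRNA and one that favoured growth raises it. T1-160 is 1 selected line, and the labels do not say if its replicates are separate infections or cultures. Differences among libraries of a group may therefore be technical. The gene test (RRA) compares ranks of sgRNAs, and limma on gene means tests against the spread between libraries.

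CLOCK and its paralogue NPAS2 each pair with ARNTL through basic helix-loop-helix and PAS domains. The dimers bind E-box elements and switch on, among many other genes, the PER and CRY repressors that later shut them off, which closes the daily feedback loop. ARNTL is the partner common to both dimers, NPAS2 can stand in for CLOCK in some tissues, and CLOCK has been described as a histone acetyltransferase.

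The libraries held 2045986 to 11771418 reads, with Taxol 2 the shallowest and Taxol 1 the deepest, or 260.5 to 1499 reads per sgRNA. No sgRNA of the 3 genes was lost from any library. The lowest was CLOCK sgRNA 3 with 31 reads in Taxol 2, against a median of 154 reads for the CLOCK sgRNAs in that library. Between libraries, log2 values of all sgRNAs correlated at r = 0.635 to 0.674 within DMSO, 0.610 to 0.688 within Taxol and 0.589 to 0.725 between both groups. Libraries of one treatment were by these ranges not more alike than libraries of different treatments.

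Whether loss of a clock factor changed the fitness of resistant cells under Taxol is the question of the comparison of Taxol with DMSO. None of the 3 genes passed the gene test in this comparison. ARNTL was lower in Taxol by its mean over sgRNAs, while CLOCK and NPAS2 lay close to no change. In the gene test, sgRNAs were ranked by limma and the ranks of a gene were combined by robust rank aggregation (RRA), with calls at an adjusted p under 0.05. It called 0.257% of the 779 genes depleted and 0.128% enriched, and at an unadjusted p under 0.05 these shares were 4.75% and 6.55%. None of the 3 genes was in any of these 4 sets.

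For ARNTL, the level (mean over its 10 sgRNAs of log2(normalized count + 1)) was 8.87, 9.21 and 9.38 in DMSO 1 to 3 and 9.21, 8.73 and 8.44 in Taxol 1 to 3. Taxol 2 and Taxol 3 were below all DMSO libraries, while Taxol 1 was level with DMSO 2. The mean log2 fold change was -0.36 (SD between libraries 0.33, n = 3 per group), which placed ARNTL at rank 41 of 779 from the most depleted. The exact one-sided RRA p for depletion was 0.0984 (adjusted p = 0.969), and limma on the gene means gave a 95% interval from -0.85 to 0.13 (adjusted p = 0.855). ARNTL was among the genes that the study took from this screen into follow-up assays. The study chose such genes by high log-fold changes here and no earlier link to chemotherapy resistance. That choice thus rested on the same data as this ranking and is no separate evidence. In its text, the study does not name ARNTL among the knockouts with a significant decrease in the growth competition assay.

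CLOCK had levels of 8.68, 8.44 and 8.56 in DMSO 1 to 3 and 8.72, 8.503 and 8.60 in Taxol 1 to 3. The 2 groups lay over each other, and CLOCK varied least of the 3 genes, with an SD between libraries of 0.11 against a median of 0.27 over all genes. Its mean log2 fold change was 0.05, with a limma 95% interval from -0.39 to 0.49 and an adjusted p of 0.981. The RRA test gave an adjusted p of 0.984 for depletion and of 1 for enrichment.

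NPAS2 had levels of 9.01, 9.05 and 9.48 in DMSO 1 to 3 and 9.95, 8.73 and 9.02 in Taxol 1 to 3. Taxol 1 was the highest of the 6 libraries and Taxol 2 the lowest, so that the mean log2 fold change of 0.05 came from libraries on both sides. The SD between libraries was 0.49, the largest of the 3 genes, and the limma 95% interval ran from -0.49 to 0.59 (adjusted p = 0.985). The adjusted RRA p was 0.969 for depletion and 1 for enrichment. Without Taxol 1 the change of NPAS2 was -0.31, with an exact RRA p for depletion of 0.0227 that did not hold after adjustment (adjusted p = 0.692).

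The Taxol and DMSO libraries overlapped for all 3 genes. Over all genes, every Taxol library was below every DMSO library for 4.49% and above for 6.29%. Between the 5% and 95% quantiles, the 779 genes lay from -0.36 to 0.47, with a median of 0.03. ARNTL was thus at the lower edge of that range and the other two near its centre.

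**Figure D1:**
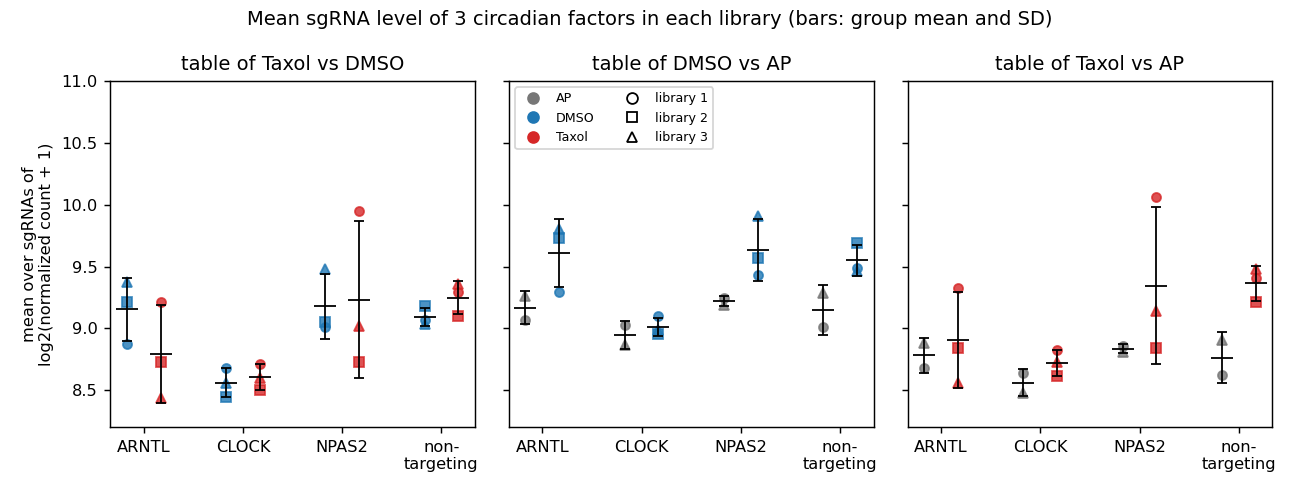
Mean over the sgRNAs of log2(normalized count + 1) for ARNTL, CLOCK, NPAS2 and the 80 non-targeting sgRNAs in each library, 1 panel per deposited table; points are libraries, bars give the group mean and its SD (n = 3, or 2 for AP). NPAS2 in Taxol 1 stands apart at 9.95 in the first panel and 10.06 in the third, while the libraries of CLOCK lie close together.

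Single sgRNAs of a gene did not move together. Of the ARNTL sgRNAs, 7 of 10 had a lower mean in Taxol than in DMSO, from -1.15 to 0.87 on the log2 scale. For CLOCK 4 of 10 were lower (range -0.92 to 0.75), and for NPAS2 5 of 10 (range -0.97 to 1.46). Over all genes, a median of 5 sgRNAs per gene was lower. The SD between sgRNAs was 0.64 for ARNTL, 0.53 for CLOCK and 0.82 for NPAS2, beside a median of 0.64 over all genes. No sgRNA of the library passed the adjusted limma test, and none of the 30 passed at an unadjusted p under 0.05, against 1.55% of all sgRNAs lower and 2.01% higher.

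Only a few of the 30 sgRNAs separated the groups. ARNTL sgRNA 6 had normalized counts of 849.9, 1103 and 909.4 in DMSO 1 to 3 and of 521.3, 497.6 and 378.5 in Taxol 1 to 3, a log2 fold change of -1.04. CLOCK sgRNA 10 had 405.4, 583.1 and 546.6 in DMSO and 333.4, 294.1 and 191.5 in Taxol (-0.92). Both were below the DMSO range in every Taxol library. Measured against AP, ARNTL sgRNA 6 was at 0.98 in DMSO and -0.01 in Taxol, and CLOCK sgRNA 10 at 0.84 and -0.04. On the deposited scale these 2 sgRNAs were thus higher in DMSO than at the start and near their starting level in Taxol. The median of the non-targeting sgRNAs against AP was 0.43 in DMSO and 0.68 in Taxol. Relative to it, both sgRNAs were above in DMSO and below in Taxol. They were picked for being lower in Taxol than in these same DMSO libraries, so these values are no separate evidence. NPAS2 sgRNA 1 was the opposite case, with 559.8, 377.0 and 457.1 in DMSO and 6220, 572.3 and 563.4 in Taxol (1.46). All 3 Taxol libraries were above DMSO there, but Taxol 2 and Taxol 3 exceeded DMSO 1 only slightly. In total 2 of the 30 were lower and 1 higher without overlap, beside 4.26% and 4.76% of all sgRNAs.

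The largest values of the set came from single Taxol libraries. ARNTL sgRNA 1 had 10193 normalized counts in Taxol 1, 821.1 in Taxol 2 and 919.9 in Taxol 3. NPAS2 sgRNA 9 had 11768 in Taxol 1, 941.0 in Taxol 2 and 939.7 in Taxol 3. CLOCK sgRNA 7 had 6239 in Taxol 1, 667.3 in Taxol 2 and 515.0 in Taxol 3. In each case 1 Taxol library held most of the counts and the others were similar to each other. The same sgRNAs were also uneven in DMSO 1 to 3, to a lesser degree. There ARNTL sgRNA 1 had 1921, 699.9 and 943.6, NPAS2 sgRNA 9 had 637.0, 1793 and 951.9, and CLOCK sgRNA 7 had 1002, 3095 and 530.1.

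An excess of at least 4-fold over the second-highest library of the group was counted for every sgRNA, a limit chosen after such values had been seen. Among the Taxol libraries it was met by 9 of the 30 sgRNAs and by 12.04% of all sgRNAs. Taxol 1 was the high library for 7 of the 30 (23.3%), namely ARNTL sgRNAs 1 and 4, CLOCK sgRNA 7 and NPAS2 sgRNAs 1, 5, 7 and 9, and for 7.002% of all sgRNAs. Taxol 3 was the high library for CLOCK sgRNA 4, with 4349 normalized counts against 481.9 in Taxol 1 and 665.0 in Taxol 2, and for NPAS2 sgRNA 8. In the DMSO libraries 2 of the 30 met the limit, beside 7.09% of all sgRNAs. These were ARNTL sgRNA 2, at 2968 in DMSO 2 against 292.0 in DMSO 1 and 689.2 in DMSO 3, and NPAS2 sgRNA 8 in DMSO 3.

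Among the 3 genes, the sgRNAs of NPAS2 spread most between Taxol libraries. This spread was not computed for single genes outside the set. The median SD of log2 values over the 3 Taxol libraries was 1.23 for NPAS2, 0.52 for ARNTL and 0.53 for CLOCK, and 0.63 over all sgRNAs. In DMSO these medians were 0.63 for NPAS2, 0.70 for ARNTL and 0.77 for CLOCK, with 0.70 over all sgRNAs. Counting error of the reads alone would give a median SD of 0.06 to 0.11, a lower bound, since PCR reads are not independent molecules. What set sgRNAs apart in a single library was not tested.

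**Figure D2:**
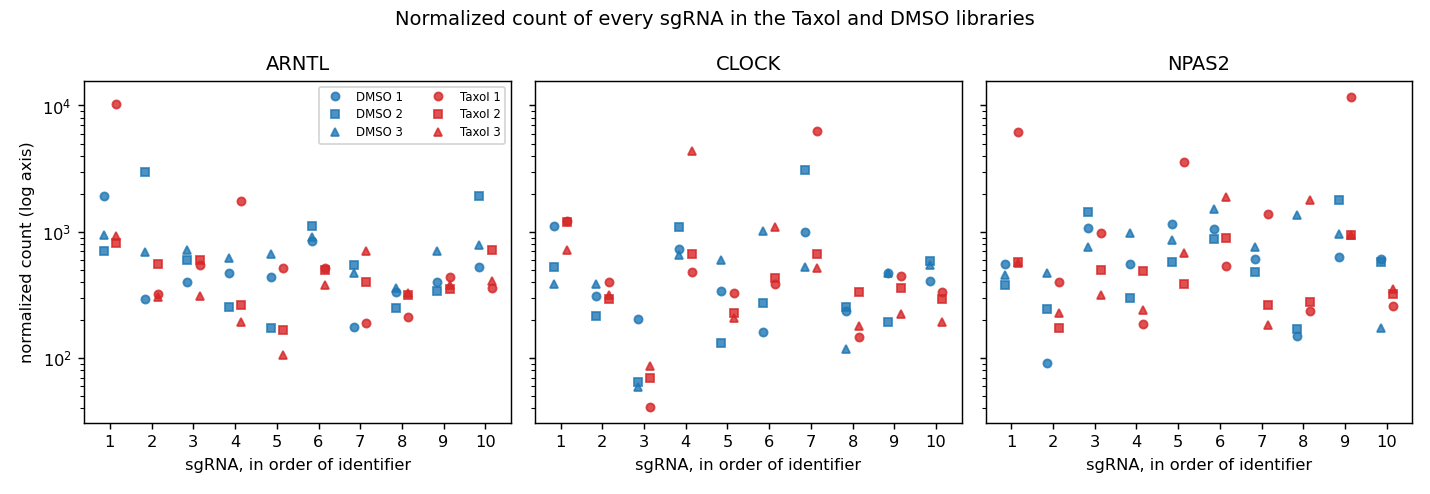
Normalized count (log axis) of each of the 10 sgRNAs of ARNTL, CLOCK and NPAS2 in the 3 DMSO (blue) and 3 Taxol (red) libraries; the marker shape gives the library number. The red circles of Taxol 1 reach 10193 for ARNTL sgRNA 1 and 11768 for NPAS2 sgRNA 9, far above the other libraries, and CLOCK sgRNA 3 is the least abundant.

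The reads of a gene show the same libraries from another side. With 10 of 7855 sgRNAs, an even share would be 0.127% of the reads. NPAS2 held 0.309% of the reads of Taxol 1 (Wilson 95% interval 0.306% to 0.312%), with 46.0% of them from sgRNA 9. Its share was 0.183% in DMSO 3, 0.142% in DMSO 1, 0.138% in AP 1, 0.127% in AP 3, 0.120% in Taxol 3, 0.118% in DMSO 2 and 0.104% in Taxol 2. The order thus put the Taxol libraries at both ends and in between, with no order by group.

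ARNTL held 0.182% in Taxol 1, with 67.7% of its reads from sgRNA 1, and its lowest share was 0.0675% in Taxol 3 (Wilson 95% interval 0.0645% to 0.0706%). The other libraries were at 0.152% in DMSO 2 and DMSO 3, 0.128% in DMSO 1, 0.127% in AP 3, 0.114% in AP 1 and 0.101% in Taxol 2. Apart from Taxol 1, the Taxol libraries had the lowest shares of ARNTL. The shares in AP 3 and DMSO 1 did not differ beyond their intervals, nor did those in DMSO 2 and DMSO 3.

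CLOCK had the narrowest range of shares of the 3 genes, from 0.0983% in Taxol 2 to 0.132% in Taxol 3. Between these, it was at 0.121% in Taxol 1, 0.114% in AP 1, 0.110% in DMSO 2, 0.109% in DMSO 1, 0.107% in AP 3 and 0.105% in DMSO 3. In Taxol 3, sgRNA 4 gave 55.2% of its reads, and in Taxol 1, sgRNA 7 gave 62.3%. The intervals cover counting error only, since PCR reads without molecular identifiers are not independent molecules.

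**Figure D3:**
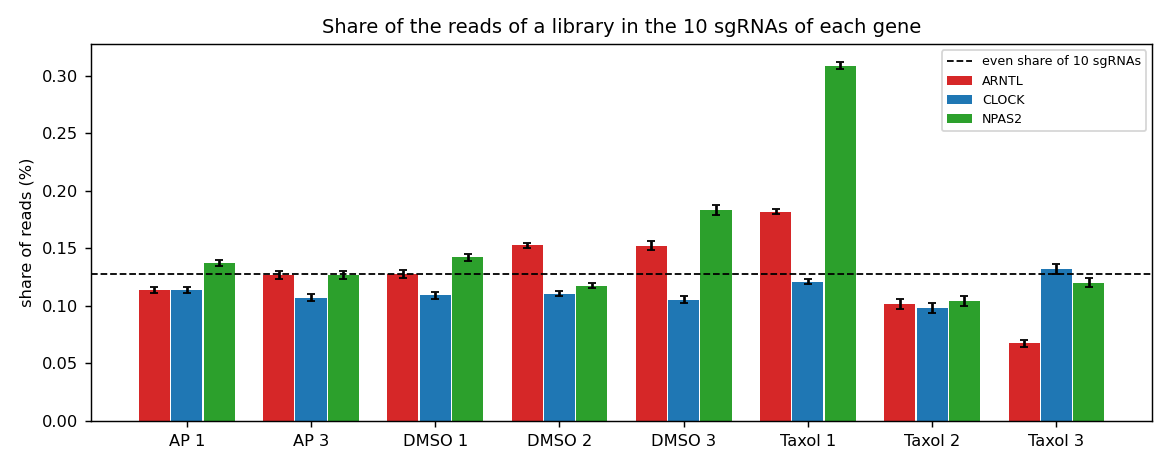
Share of the reads of each library (%) that fell on the 10 sgRNAs of ARNTL, CLOCK and NPAS2; error bars are Wilson 95% intervals and the dashed line is the even share of 0.127%. NPAS2 reaches 0.309% in Taxol 1, and ARNTL is lowest in Taxol 3 at 0.0675%.

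The comparison of DMSO with AP asks whether loss of these genes altered growth without the drug over the culture period. No clock factor was called in it, and ARNTL and NPAS2 had higher mean log2 levels in every DMSO library than in either AP library. Their shares of the reads, given above, did not separate the groups for NPAS2, with DMSO 2 below both AP libraries. RRA called 2.05% of genes depleted and 0.128% enriched, and 11.8% and 8.09% at an unadjusted p under 0.05, again with none of the 3 genes among them. With the replicate number as a block, which leaves out DMSO 2, 2 genes in place of 1 were called enriched. The values of this comparison come from a table scaled on its own, so levels differ from those above. It shares the DMSO libraries with the comparison of Taxol with DMSO, so the 2 changes of a gene are not independent. High DMSO values raise the change here and lower the other.

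ARNTL had levels of 9.07 and 9.26 in AP 1 and AP 3 and of 9.29, 9.73 and 9.80 in DMSO 1 to 3. The groups did not overlap, but DMSO 1 exceeded AP 3 by little. The mean log2 fold change was 0.44 (SD 0.24), with 8 of 10 sgRNAs higher, an adjusted RRA p for enrichment of 1 and a limma 95% interval from -0.02 to 0.90 (adjusted p = 0.258).

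NPAS2 had levels of 9.25 and 9.19 in AP 1 and AP 3 and of 9.43, 9.57 and 9.91 in DMSO 1 to 3, again without overlap. Its mean log2 fold change was 0.41 (SD 0.20), with 6 of 10 sgRNAs higher. The exact RRA p for enrichment was 0.0543 (adjusted p = 0.632), and the limma 95% interval ran from -0.04 to 0.86 (adjusted p = 0.275). Libraries of DMSO were all above those of AP for 29.3% of all genes and all below for 14.1%, so the separation of ARNTL and NPAS2 was a common one.

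CLOCK had levels of 9.03 and 8.86 in AP 1 and AP 3 and of 9.10, 8.96 and 8.99 in DMSO 1 to 3, which overlapped. Its log2 fold change was 0.07 (SD 0.09), with 5 of 10 sgRNAs on each side and a limma 95% interval from -0.37 to 0.51 (adjusted p = 0.847). The median of all genes was 0.15, with the 5% and 95% quantiles at -0.61 and 0.61, and a median of 4 sgRNAs per gene was lower.

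Among single sgRNAs, NPAS2 sgRNAs 7 and 3 had the largest excess over AP. For sgRNA 7 the normalized counts were 154.8 and 365.7 in AP and 813.1, 692.3 and 1018 in DMSO, a log2 fold change of 1.80 (limma adjusted p = 0.727). For sgRNA 3 they were 423.1 and 686.3 in AP and 1439, 2043 and 1016 in DMSO, a log2 fold change of 1.42 (limma adjusted p = 0.727). These were the only 2 of the 30 with an unadjusted p under 0.05, and over all sgRNAs the shares were 3.65% lower and 3.21% higher. NPAS2 sgRNA 1 lay the other way, at 1009 and 754.0 in AP and 749.6, 539.4 and 615.0 in DMSO. Without overlap, 2 of the 30 were lower and 5 higher, beside 12.01% and 11.2% of all sgRNAs.

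The comparison of Taxol with AP shares the Taxol libraries with the first comparison and the AP libraries with the second, and is therefore not a separate set of measurements. No clock factor was called, while RRA called 4.62% of genes depleted and 1.41% enriched, and 13.1% and 8.34% at an unadjusted p under 0.05. With the replicate number as a block, which leaves out Taxol 2, 4 genes in place of 11 were called enriched.

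ARNTL had levels of 8.68 and 8.88 in AP 1 and AP 3 and of 9.33, 8.84 and 8.56 in Taxol 1 to 3, a log2 fold change of 0.13 (SD 0.33). CLOCK had 8.64 and 8.48 in AP and 8.83, 8.61 and 8.73 in Taxol, a log2 fold change of 0.16 (SD 0.11). NPAS2 had 8.86 and 8.81 in AP and 10.06, 8.84 and 9.14 in Taxol, a log2 fold change of 0.51 (SD 0.52), which was 0.15 without Taxol 1. In all 3 genes the groups overlapped, although over all genes 32.3% had every Taxol library above AP and 14.5% every Taxol library below. The limma 95% intervals were -0.39 to 0.65 for ARNTL, -0.27 to 0.59 for CLOCK and -0.14 to 1.16 for NPAS2, with adjusted p-values of 0.749, 0.598 and 0.291. The RRA adjusted p was 1 for all 3 in both directions.

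CLOCK sgRNA 1 had the lowest p of the 30 here, with a log2 fold change of 1.28 (limma adjusted p = 0.737). No sgRNA of the set had an unadjusted p under 0.05, against 3.9% of all sgRNAs lower and 2.24% higher. NPAS2 sgRNA 9 had the largest log2 fold change at 1.80, and Taxol 1 held most of its counts. Without overlap 3 of the 30 were lower (ARNTL sgRNAs 8 and 9 and CLOCK sgRNA 3) and 2 higher (CLOCK sgRNA 1 and NPAS2 sgRNA 9), beside 13.6% and 12.4% of all sgRNAs.

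**Figure D4:**
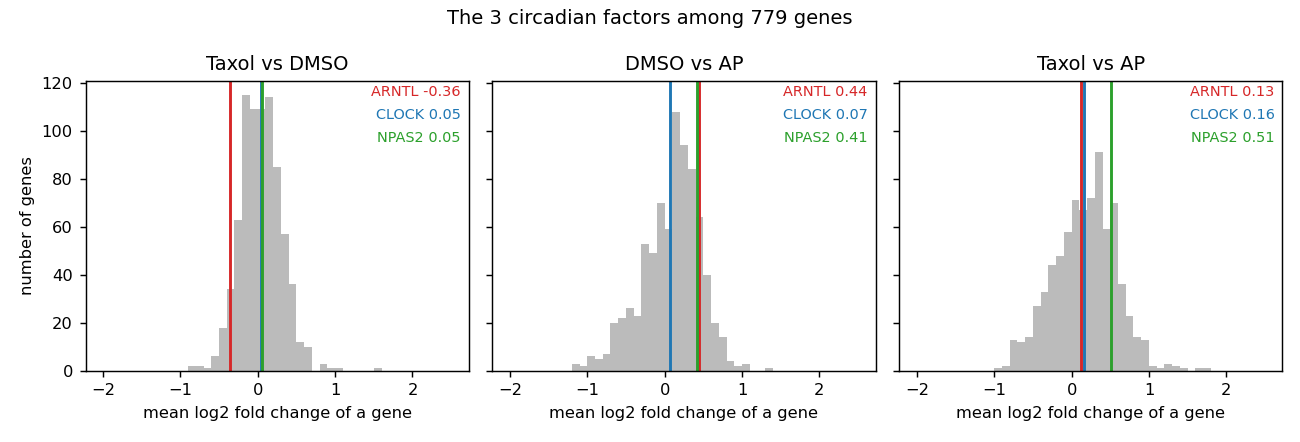
Histograms of the mean log2 fold change of the 779 genes in the 3 comparisons, with ARNTL (red), CLOCK (blue) and NPAS2 (green) marked by lines. ARNTL at -0.36 lies on the lower flank for Taxol vs DMSO, and ARNTL at 0.44 and NPAS2 at 0.41 lie on the upper flank for DMSO vs AP.

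The non-targeting sgRNAs, which cut no gene, give the background. Over 80 of them the median log2 fold change was 0.11 for Taxol vs DMSO, 0.43 for DMSO vs AP and 0.68 for Taxol vs AP. ARNTL (0.44) and NPAS2 (0.41) in DMSO vs AP were thus close to the non-targeting median, and CLOCK (0.07) was below it. Centring each library on its non-targeting sgRNAs moved all values down, by 0.17 for Taxol vs DMSO, 0.31 for DMSO vs AP and 0.53 for Taxol vs AP, and so turned some directions.

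On the non-targeting scale, CLOCK was at -0.12 and NPAS2 at -0.12 for Taxol vs DMSO, and ARNTL at -0.53. For DMSO vs AP, ARNTL was at 0.13, NPAS2 at 0.11 and CLOCK at -0.24. For Taxol vs AP, ARNTL was at -0.40, CLOCK at -0.36 and NPAS2 at -0.01. The medians of all genes on this scale were -0.14, -0.16 and -0.33 for the 3 comparisons in that order, so the order of the 3 genes relative to the rest did not change.

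Most sgRNAs of the set lay within the central 95% of the non-targeting ones. For Taxol vs DMSO, that range was -1.05 to 1.40 and held 28 of the 30, with 8.30% of all sgRNAs outside. ARNTL sgRNA 2 was below it at -1.15 and NPAS2 sgRNA 1 above it at 1.46. For DMSO vs AP, with a range of -0.98 to 1.58, only NPAS2 sgRNA 7 was outside, beside 10.6% of all sgRNAs. For Taxol vs AP, with a range of -0.46 to 1.88, 4 of the 30 were below (2 of ARNTL, 1 of CLOCK and 1 of NPAS2), beside 20.7% of all sgRNAs.

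**Figure D5:**
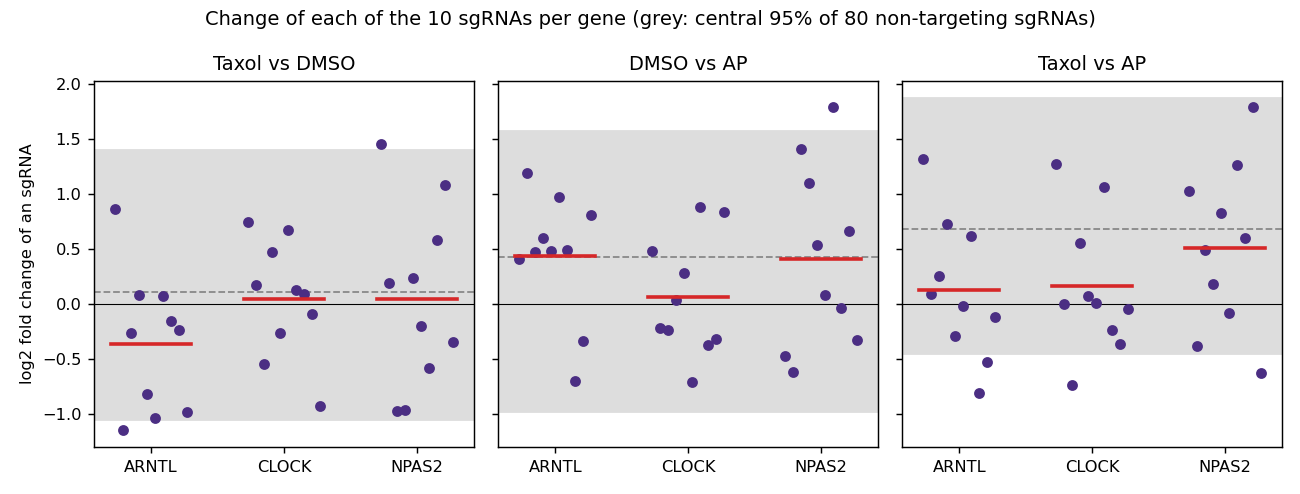
Points are the sgRNAs of ARNTL, CLOCK and NPAS2 (10 per gene), with their log2 fold change on the y axis, in the 3 comparisons; red lines are the mean of the gene, the grey band is the central 95% of the 80 non-targeting sgRNAs and the dashed line their median. The sgRNAs of each gene spread on both sides of 0, and 28 of the 30 lie in the band for Taxol vs DMSO, which 8.30% of all sgRNAs fall outside.

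ARNTL is the dimer partner of the other two, and the 3 pairs of genes were compared for their response to Taxol. The difference between ARNTL and CLOCK changed by -0.41 from DMSO to Taxol on the log2 scale (exact two-sided permutation p = 0.3, adjusted p = 0.45 over 3 pairs). For ARNTL and NPAS2 it was -0.41 as well (exact permutation p = 0.3, adjusted p = 0.45). For CLOCK and NPAS2 it was -0.0039 (exact permutation p = 1). With 3 libraries in each group this exact permutation test cannot go below p = 0.1, so none of the pairs was shown to respond differently or alike. Exchanging values only within pairs of the same replicate number, an alternative chosen after seeing the data, gave exact permutation p-values of 0.5, 0.25 and 1 in that order (adjusted p = 0.75, 0.75 and 1), where 0.25 is the lowest possible.

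Across the 6 Taxol and DMSO libraries, the levels of ARNTL and NPAS2 correlated at r = 0.63, those of CLOCK and NPAS2 at r = 0.57 and those of ARNTL and CLOCK at r = -0.07. The genes with the most similar profile were YEATS4 (r = 0.884), PSIP1 (0.872) and CXXC1 (0.870) for ARNTL. They were SATB1 (0.964), ZNF711 (0.960) and CSRP2BP (0.954) for CLOCK, and PRKAG3 (0.952), RNF168 (0.935) and AURKC (0.926) for NPAS2. These are descriptions over 6 points that share library depth and scaling, chosen as the highest of all genes.

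Few other parts of the clock were in the screen. Of a list of 30 clock genes, 4 were measured, the 3 factors and CSNK2A1, the catalytic subunit of a kinase that phosphorylates ARNTL. CSNK2A1 had log2 fold changes of 0.15 (Taxol vs DMSO), -0.03 (DMSO vs AP) and 0.16 (Taxol vs AP) and passed no test. The median of the 4 was 0.05, 0.24 and 0.16 in these comparisons, beside 0.03, 0.15 and 0.20 for all genes. Of 22 genes of the bHLH-PAS family, 6 were measured, the 3 factors and the coactivators NCOA1, NCOA2 and NCOA3, and none of them passed the adjusted or the unadjusted threshold in any comparison.

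The chromatin partners of the clock were better covered, with 24 of 27 measured. For Taxol vs DMSO none was called, and their median was 0.04. At an unadjusted p under 0.05, which 4.75% of all genes passed for depletion and 6.55% for enrichment, 2 were lower, KMT2A (-0.45), a histone H3 lysine methyltransferase that binds CLOCK, and CBX3 (-0.44), a heterochromatin protein. On the other side were 5 genes, the acetyltransferase EP300 (0.85), SIRT6 (0.51), NCOR1 (0.56), MTA2 (0.61) and KMT2C (0.40), with adjusted p-values from 0.155 to 0.680.

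For DMSO vs AP none of the 24 was called by RRA either (median 0.20). HDAC3, the deacetylase of the nuclear receptor corepressor complexes, was lower at the unadjusted threshold (-0.83, adjusted p = 0.0584), and CREBBP, HDAC2, CBX3 and EP300 were higher. These are 1 lower and 4 higher of 24, beside 11.8% and 8.09% of all genes. For Taxol vs AP (median 0.37) 2 genes were called by RRA and rose, beside 1.41% of all genes, EP300 by 1.43 (adjusted p = 0.000161) and CREBBP by 1.31 (adjusted p = 0.000605). Limma on gene means did not call them (adjusted p = 0.0753 and 0.0744). These are the paralogous acetyltransferases p300 and CBP, coactivators of the CLOCK and ARNTL dimer. CHD4 (-0.38) and HDAC3 (-0.61) were lower at the unadjusted threshold, 2 of 24 beside 13.1% of all genes.

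Among acetyltransferases, the enzyme class ascribed to CLOCK, 20 of 26 were measured. None was called for Taxol vs DMSO (median 0.03), and EP300 and TAF1 (0.18) were higher at the unadjusted threshold, 2 of 20 beside 6.55% of all genes. For DMSO vs AP (median 0.08), GTF3C4, a subunit of the RNA polymerase III factor TFIIIC, fell by 0.89 (adjusted p = 0.033, and 0.0327 with limma on gene means), beside 2.05% of all genes called depleted. With KAT8 and TAF1, 3 of 20 were lower at the unadjusted threshold and 3 higher (CREBBP, NAA60 and EP300), beside 11.8% and 8.09% of all genes. For Taxol vs AP (median 0.13), KAT8, the catalytic subunit of the MSL and NSL complexes, fell by 0.61 (adjusted p = 0.0203) by RRA, but was not called by limma on gene means (adjusted p = 0.153), beside 4.62% of all genes called depleted by RRA. EP300 and CREBBP are described above. With KAT5, ELP3 and GTF3C4, 4 of 20 were lower at the unadjusted threshold, beside 13.1% of all genes, and CLOCK itself passed neither threshold in any of the 3 comparisons.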

How the data were processed

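The tables that the authors deposited hold sgRNA counts that were already normalized, with a table for each comparison and 3 values joined in each cell. Per the labels, MAGeCK 0.5.8 made them; RRA is the gene test of the study's methods. For trimming, mapping and genome build, the options are not given in the sources used here. The authors' own fold changes, p-values and scores per sgRNA and gene were not used. The median ratio to the geometric mean over libraries was 0.921 to 0.922 over all sgRNAs in the table of Taxol and DMSO, so the scaling centres on the typical sgRNA. The order of values in a cell was assumed to follow the replicate numbers. The AP cells hold 3 values, of which the outer pair was taken as replicates 1 and 3; the middle value was not used, which left out 2 value columns. Reads were recovered from the step of the values (98.98% to 99.99% whole within 0.1 read) and served for depth and shares only. A row that names no gene was left out of each table.

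The log2(normalized count + 1), which understates changes of low counts, was fitted per sgRNA in limma 3.58.1 under R 4.3.3 (eBayes with trend), without covariates, within the 2 groups of a table. Ranks of the moderated statistic were combined per gene (at least 3 sgRNAs) by alpha-RRA over the lowest or highest 25% of ranks, with one-sided exact p-values from uniform order statistics and Benjamini-Hochberg adjustment within each direction. The RRA p compares ranks of sgRNAs, whereas limma on gene means tests against the spread between libraries. The scripts were tested on simulated data. Deviations from group means correlated between DMSO and Taxol libraries of the same number (from the sample titles and the assumed order) at r = 0.169, 0.131 and 0.206. Correlations between unlike numbers were not computed, so a pairing by number is possible but was not tested. It entered the alternatives only, and the main fits and the main permutation test left it out. Alternatives were the number as a block, the pseudocount (0.5 or 10), a filter of sgRNAs with a mean under 50, centring on the 80 non-targeting sgRNAs, the median over sgRNAs, 10% of ranks, limma on gene means, and leaving out the sgRNA of largest change or a library. Named genes are the 3 factors, for each the 3 genes of most similar profile, and list members with p under 0.05. The factors and lists were chosen with earlier results of these data known.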

Additional observations from a re-analysis of the deposited data

How the results depend on the processing

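No clock factor was called under any alternative that was run with a test. ARNTL in Taxol vs DMSO stayed negative under all 16 alternatives (-0.57 to -0.18), and ARNTL and NPAS2 in DMSO vs AP stayed positive under all 15 (0.13 to 0.60 and 0.11 to 0.52). Some alternatives returned the main value and so added no separate check of direction. They were the filter under 50, 10% of ranks and limma on gene means, and in Taxol vs DMSO also the replicate block. Directions of the other values turned under some alternatives. Non-targeting centring lowered every gene of a comparison by the shift given above, and for the other alternatives the cause was not tested. With non-targeting centring the values in Taxol vs DMSO were -0.12 for CLOCK and -0.12 for NPAS2, CLOCK in DMSO vs AP was -0.24, and in Taxol vs AP the values were -0.40 for ARNTL, -0.36 for CLOCK and -0.0143 for NPAS2. With the median over the libraries of a group, an alternative chosen after seeing the data and without a test, CLOCK was -0.10 and NPAS2 -0.40 in Taxol vs DMSO, and ARNTL was -0.11, CLOCK -0.0449 and NPAS2 -0.0055 in Taxol vs AP. With the median over sgRNAs NPAS2 was -0.0039 in Taxol vs DMSO and CLOCK -0.0904 in DMSO vs AP. Without the sgRNA of largest change NPAS2 was -0.11 in Taxol vs DMSO, CLOCK -0.0220 in DMSO vs AP and ARNTL -0.0063 in Taxol vs AP.

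With 1 library left out, NPAS2 ranged from -0.31 (without Taxol 1) to 0.30 and CLOCK from -0.0118 (without DMSO 2) to 0.11 in Taxol vs DMSO, where NPAS2 was also at -0.0347 without DMSO 1 and at -0.0147 without DMSO 2, and CLOCK at -0.0068 without Taxol 1. ARNTL ranged from -0.57 (without Taxol 1, unadjusted exact p = 0.0273, adjusted p = 0.750) to -0.18 (without Taxol 3). CLOCK ranged from -0.0122 (without AP 3) to 0.15 in DMSO vs AP, and in Taxol vs AP ARNTL ranged from -0.0815 (without Taxol 1) to 0.30, CLOCK from 0.08 (without AP 3) to 0.24 (without AP 1) and NPAS2 from 0.15 (without Taxol 1) to 0.76 (without Taxol 2). NPAS2 in DMSO vs AP had an unadjusted p under 0.05 under 3 alternatives (lowest 0.0317, without DMSO 2, adjusted p = 0.688).

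Counts of called genes moved by more than 1.5 times as follows. In Taxol vs DMSO, 1 gene was depleted with 10% of ranks and 0 with limma on gene means (12 at an unadjusted p under 0.05), in place of 2. There, 2 were enriched with the filter under 50, 4 with non-targeting centring and 2 without the sgRNA of largest change, in place of 1. In DMSO vs AP, 8 were depleted with 10% of ranks in place of 16, and 6 were enriched with limma on gene means, 9 without the sgRNA of largest change and 2 with the replicate block in place of 1. In Taxol vs AP, 11 were depleted with 10% of ranks and 0 with limma on gene means (49 unadjusted) in place of 36, and 1 was enriched with limma on gene means and 4 with the replicate block in place of 11. Leaving out 1 library gave 0 to 1 depleted and 1 to 3 enriched in Taxol vs DMSO, 10 to 21 and 1 to 6 in DMSO vs AP, and 2 to 30 and 1 to 8 in Taxol vs AP.

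With the replicate block ARNTL in Taxol vs DMSO kept -0.36 (adjusted p = 0.866), and the block changed no call of a clock factor. In the comparisons with AP the block uses replicates 1 and 3 only, and gave 0.45 for NPAS2 in DMSO vs AP (adjusted p = 0.757). The planned count test in edgeR was not run, since the values are deposited as joined normalized counts. The part of depth in the spread between libraries was not tested, and read totals ranged from 2045986 to 11771418.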
